A study of Homo sapiens with 3 samples.

Results

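The 40 genes described here encode proteins that drive cells into, through and out of mitosis. They were taken by symbol as a list, from the mitotic cyclins and their kinase to spindle, kinetochore and cytokinesis proteins. All 40 were found once each among the 55773 gene symbols of the table, and all 40 stood at or above 1 RPKM (reads per kilobase of gene, scaled to the depth of the library) in every library. RNA sequencing compared 3 lines of HaCaT, a spontaneously immortalised human keratinocyte line. The first line carried wild-type THG-1 (WT), the second carried THG-1 (S264A), and the third carried an empty vector (-). Every line, the control included, had first been made to express the oncogenic HRasG12V mutant, so that no line without it was compared. THG-1 is encoded by TSC22D4, a member of the TSC22 leucine zipper family, and S264A replaces 1 serine by alanine. The culture medium was DMEM containing serum, and each line was represented by 1 library of total RNA. The sources used here do not say which promoter drove the transgenes, or whether a line was a clone or a pool.

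Entry into mitosis is driven by the kinase CDK1 bound to cyclin A or B, which the CDC25 phosphatases switch on. Attached kinetochores silence the spindle assembly checkpoint, and the anaphase-promoting complex then marks cyclin B and securin for destruction. Most of these genes are transcribed late in the cell cycle. Their promoters are held off by the DREAM complex in resting cells and are switched on by B-MYB and FOXM1, through an element called CHR (cell cycle genes homology region) and through CCAAT boxes bound by NF-Y. In epidermis such transcripts mark the dividing basal layer.

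The depth of the libraries was 12733479 reads with WT, 14022885 reads with S264A and 32055052 reads with empty vector. TSC22D4 stood at 64.9 RPKM with WT, 51.1 RPKM with S264A and 7.98 RPKM with empty vector. All 8 keratinocyte markers examined were at 17.4 RPKM or more in every library. Of 15 markers of fibroblasts, immune, endothelial and melanocytic cells in the table, none reached 1 RPKM in any library, and LUM and TYR were among those at 0 throughout. Summed, the fibroblast markers were at 0.825 RPKM with WT, 0.643 RPKM with S264A and 0.557 RPKM with empty vector, and the sums of the other lists were at most 0.711 RPKM in any library. With 1 library per line no spread between replicates could be measured and no test could be run, so that each difference below is one between single libraries. The intervals given beside ratios are exact Clopper-Pearson 95% intervals from the reads and cover counting error only. Reads without molecular identifiers are not independent molecules.

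Every one of the mitotic genes was expressed in every line. Summed over the 40 genes, the level was 954 RPKM with WT, 1027 RPKM with S264A and 1185 RPKM with empty vector. The median gene was at 17.1 RPKM with WT, 18.7 RPKM with S264A and 21.5 RPKM with empty vector. CDC25C, which encodes a phosphatase that activates CDK1, had the lowest level of the list in each library, with 108 reads with WT, 89 with S264A and 420 with empty vector. At the upper end stood TPX2, which encodes an activator of Aurora A on spindle microtubules, and CDC20, which encodes the activator of the anaphase-promoting complex. TPX2 was at 72.7 RPKM with WT, 79.2 RPKM with S264A and 72.3 RPKM with empty vector. CDC20 was at 72.6 RPKM with WT, 68.4 RPKM with S264A and 76.4 RPKM with empty vector. Both genes were high in all lines. As deposited CDC20 differed from empty vector by -0.07 with WT and by -0.16 with S264A in log2 of RPKM + 1. With equal upper quartiles it differed by -0.33 with WT and by -0.36 with S264A. On that scale the median of all genes stood at -0.22 with WT and at -0.16 with S264A against empty vector.

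**Figure D1:**
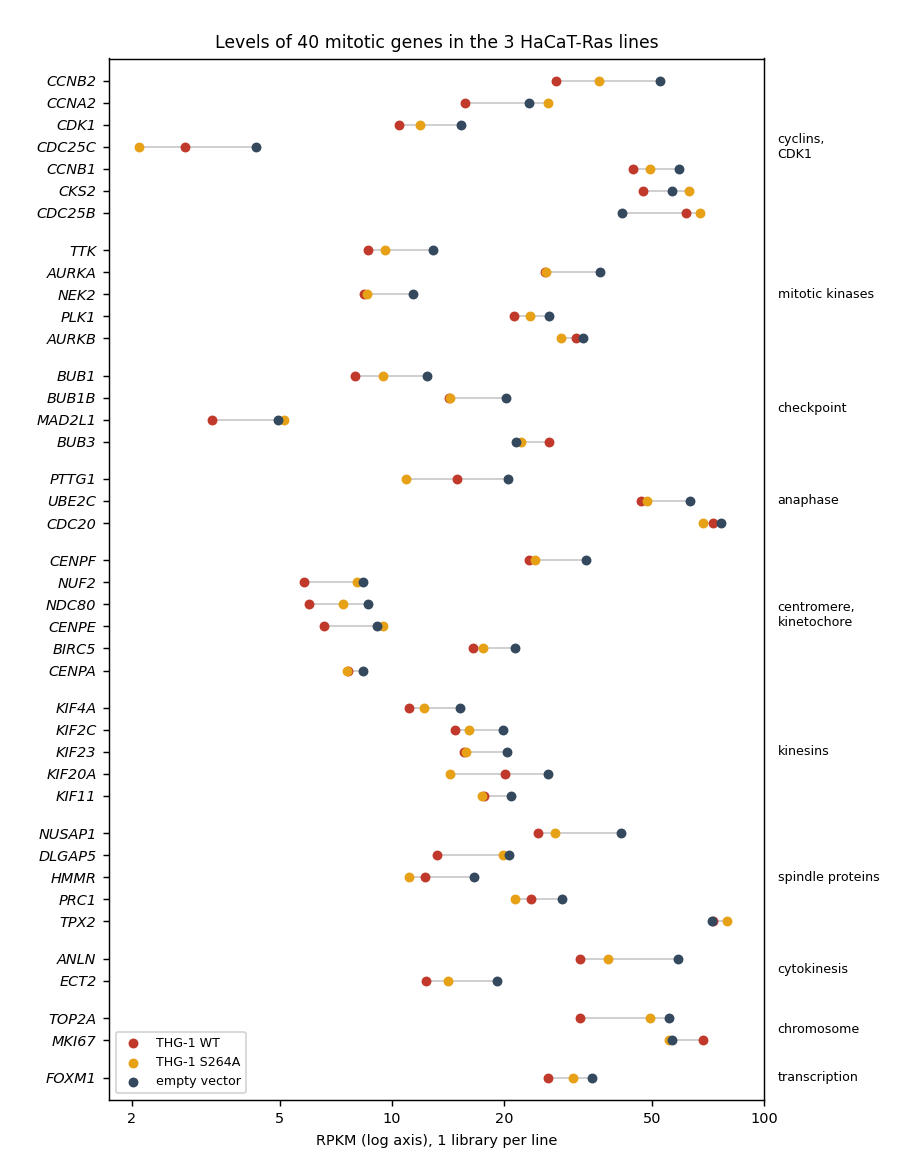
RPKM (log axis) of the 40 mitotic genes in the 3 lines, grouped by role and, within a role, ordered by the difference between WT and empty vector. Each point is 1 library, so there are no error bars, and the grey line joins the lowest and highest of the 3. For most genes the empty-vector point lies furthest right, while for CDC25B, BUB3 and TPX2 it lies furthest left.

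The first comparison asked how the mitotic genes stood when wild-type THG-1 was added to HRasG12V. Differences were taken as log2 of the ratio of RPKM + 1, and a gene was compared where either library of the pair had 1 RPKM or more. The list and the 1.2-fold rule used below were chosen with earlier results of these data known. With WT, 30 of the 40 genes were at least 1.2-fold lower than with empty vector, 3 were at least 1.2-fold higher, and 7 lay between. Among all 11993 genes compared, 24.8% were at least 1.2-fold lower and 26.2% at least 1.2-fold higher. The median difference was -0.42 on the log2 scale for the mitotic genes and -0.01 for all genes. Below 0 were 36 of the 40 genes, against 50.5% of all genes. None of the 40 differed 2-fold in either direction, while 6.07% of all genes did so, 1.54% lower and 4.53% higher. In bulk RNA, fewer cells in mitosis and less of each transcript per cell cannot be told apart.

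Counts by role with WT are to be read against 24.8% of all genes at least 1.2-fold lower. Among the cyclins and their partners, 5 of 7 genes were at least 1.2-fold lower with WT. CCNB2, which encodes cyclin B2, stood at 27.5 RPKM with WT, 36.0 RPKM with S264A and 52.4 RPKM with empty vector. Its ratio of WT to empty vector, 0.525 (0.494 to 0.558), was the lowest of the list. CCNB1, which encodes cyclin B1, the main partner of CDK1 in mitosis, was at 44.2 RPKM with WT, 49.4 RPKM with S264A and 59.0 RPKM with empty vector, a ratio of 0.75 (0.706 to 0.795) for WT to empty vector. CDK1 itself was at 10.4 RPKM with WT, 11.9 RPKM with S264A and 15.3 RPKM with empty vector, with a ratio of 0.681 (0.617 to 0.75). In these 3 genes the WT library was lowest and the empty-vector library highest. CCNA2, which encodes cyclin A2 of S phase and early mitosis, was at 15.7 RPKM with WT and 23.3 RPKM with empty vector, a ratio of 0.675 (0.613 to 0.741). CKS2, which encodes a small subunit that binds CDK1, was at 47.3 RPKM with WT and 56.4 RPKM with empty vector, short of a 1.2-fold difference.

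The CDC25 phosphatases stood on opposite sides. CDC25C was at 2.79 RPKM with WT, 2.09 RPKM with S264A and 4.31 RPKM with empty vector, a ratio of 0.647 (0.519 to 0.802) for WT to empty vector. CDC25B, which encodes the phosphatase that starts CDK1 activation at the centrosome, was at 61.7 RPKM with WT, 67.2 RPKM with S264A and 41.5 RPKM with empty vector. It was 1.49-fold higher with WT (1.43 to 1.56), and both THG-1 libraries lay above the empty-vector library.

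Of 5 mitotic kinase genes, 4 were at least 1.2-fold lower with WT. PLK1, whose kinase acts at centrosomes, kinetochores and the midbody, stood at 21.2 RPKM with WT, 23.5 RPKM with S264A and 26.4 RPKM with empty vector, a ratio of 0.802 (0.753 to 0.855). TTK (the checkpoint kinase MPS1), AURKA (the centrosomal Aurora kinase) and NEK2 (a kinase of centrosome separation) had log2 differences between -0.53 and -0.40. AURKB, the Aurora kinase of the chromosomal passenger complex, was at 31.2 RPKM with WT and 32.6 RPKM with empty vector, and its interval of the ratio, 0.883 to 1.03, held 1. In the spindle assembly checkpoint BUB1, a kinetochore kinase, was at 7.95 RPKM with WT, 9.46 RPKM with S264A and 12.4 RPKM with empty vector. Its ratio of WT to empty vector was 0.640 (0.584 to 0.70). BUB1B, which encodes BubR1, and MAD2L1, which encodes the checkpoint protein MAD2, had log2 differences of -0.48 and -0.47. BUB3, which encodes the adaptor that brings BUB1 and BubR1 to kinetochores, was on the other side, at 26.5 RPKM with WT, 22.2 RPKM with S264A and 21.6 RPKM with empty vector.

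Among genes of anaphase, UBE2C (the ubiquitin-conjugating enzyme of the anaphase-promoting complex) and PTTG1 (securin, the inhibitor of separase) each had a log2 difference of -0.43, while CDC20 was at -0.07. PTTG1 has close relatives in the genome, and the sources used here do not say how reads shared with them were counted. All 6 genes of the centromere and kinetochore were below 0, 5 of them at least 1.2-fold lower. CENPF, which encodes a large outer kinetochore protein, was at 23.4 RPKM with WT, 24.2 RPKM with S264A and 33.2 RPKM with empty vector. NUF2 and NDC80, which encode partners in the complex that grips microtubules, were at -0.47 and -0.46, CENPE, a kinetochore kinesin, at -0.42, and BIRC5, the passenger protein survivin, at -0.35. CENPA, the histone H3 variant of centromeres, was at -0.12, and its counting interval of the ratio, 0.766 to 1.07, held 1.

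The 5 genes grouped here as kinesins lay within a narrow range. Kinesin genes read outside the 40 ran from KIF18A at -1.24 to KIFC1 at 0.07. KIF4A and KIF2C (a chromosome-bound motor and a microtubule depolymerase) were at -0.42 and -0.40. KIF23 and KIF20A, motors of the central spindle, were at -0.37 and -0.36, and KIF11, the motor that separates spindle poles, at -0.22. Spindle protein genes of the list spread more widely than its kinesin genes, from NUSAP1 at -0.72 to TPX2 at 0.01. NUSAP1, which encodes a microtubule-bundling protein, stood at 24.7 RPKM with WT, 27.4 RPKM with S264A and 41.2 RPKM with empty vector, a ratio of 0.599 (0.556 to 0.644). DLGAP5, which encodes a kinetochore fibre protein, was at 13.2 RPKM with WT, 19.8 RPKM with S264A and 20.6 RPKM with empty vector, a ratio of 0.641 (0.586 to 0.701). HMMR, which encodes a spindle and hyaluronan-binding protein, was at -0.41, and PRC1, the bundler of the central spindle, at -0.26.

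Both genes of cytokinesis were among the lowest. ANLN, which encodes the cleavage furrow scaffold anillin, stood at 31.9 RPKM with WT, 37.9 RPKM with S264A and 58.5 RPKM with empty vector, a ratio of 0.545 (0.522 to 0.570). ECT2, which encodes the exchange factor that activates RhoA at the furrow, was at 12.3 RPKM with WT, 14.1 RPKM with S264A and 19.1 RPKM with empty vector, a ratio of 0.644 (0.597 to 0.694). FOXM1, the forkhead factor that activates late cell cycle genes, was at 26.2 RPKM with WT, 30.6 RPKM with S264A and 34.4 RPKM with empty vector, a ratio of 0.763 (0.721 to 0.807). For all 3 genes the S264A library stood between the others.

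The classical proliferation markers parted. TOP2A, which encodes topoisomerase II alpha, was at 32.0 RPKM with WT, 49.2 RPKM with S264A and 55.3 RPKM with empty vector, and its ratio of WT to empty vector was 0.578 (0.554 to 0.603). MKI67, which encodes the chromosome-coating protein Ki-67, was at 68.4 RPKM with WT, 55.6 RPKM with S264A and 56.4 RPKM with empty vector. It was 1.21-fold higher with WT (1.19 to 1.24), from 11157 reads with WT and 23137 with empty vector. The log2 differences of MKI67 (0.28) and BUB3 (0.28) depended on scaling and became 0.02 and 0.03 with the upper quartiles of the libraries made equal, whereas that of CDC25B became 0.31. On that scale the median of all genes stood at -0.22 for WT against empty vector and that of the mitotic genes at -0.67.

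**Figure D2:**
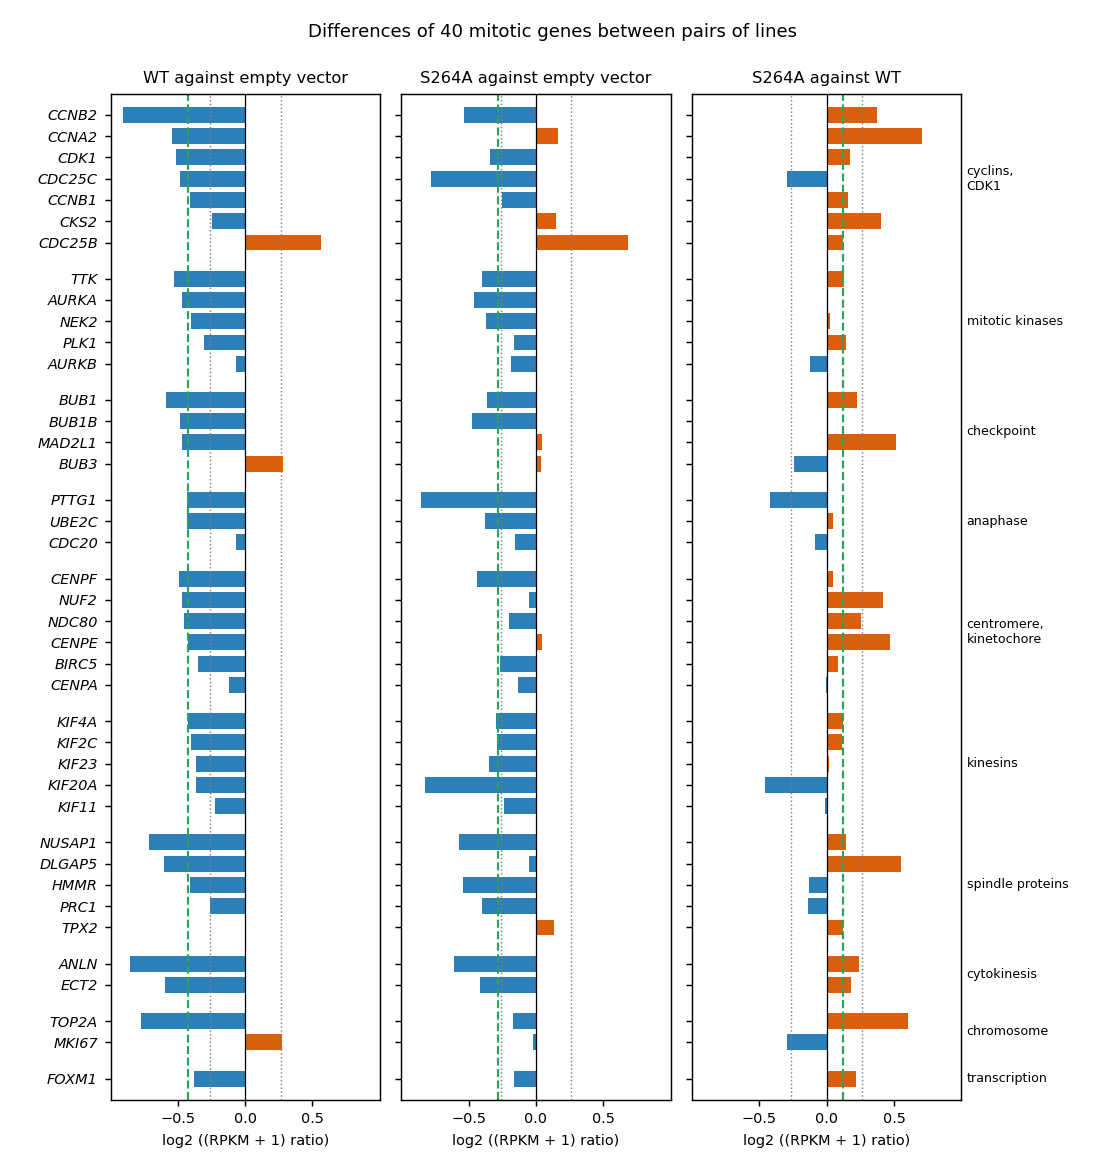
Log2 ratio of RPKM + 1 for each mitotic gene in the 3 pairs of lines, with bars left of 0 in blue (lower) and right of 0 in orange (higher). Dotted lines mark 1.2-fold and the dashed green line marks the median of the 40 genes, which is -0.42, -0.28 and 0.12 from left to right. Each bar compares 2 single libraries.

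Many members hold CHR or CCAAT letters in their promoters. Both elements are known from late cell cycle genes, as stated above, so that a high share in this list is not an independent result. The genes they are set beside were not limited to expressed ones. Windows of 300 bases, from 250 before to 50 after each annotated gene start, were taken from RefSeq on GRCh38.p14 and matched by symbol to 33 of the 40 genes. The letters of the CHR, TTTGAA or TTCGAA on either strand, were in at least 1 window of 25 of these 33 genes (75.8%), against 19.5% of the 27305 genes in the same promoter table. CCAAT on either strand was in 27 of 33 (81.8%), against 39.7% of all genes, and at 2 or more places in 18 of 33 (54.5%), against 12.9%. Matches of CHR and CCAAT may share bases, as in MKI67. Genes with several windows count once if any window has the match. A match is a run of letters and not a measured binding site. Other forms of the CHR were not searched, so that genes without these letters are not shown to lack the element.

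Windows are shown for the 4 matched members lowest with WT against empty vector, CCNB2, ANLN, TOP2A and NUSAP1, because their values were the lowest. CDC25B and MKI67 are shown because they stood on the other side, and CCNB1 as the main mitotic cyclin. Capitals mark the CHR and CCAAT letters on either strand. On the other strand CCAAT reads ATTGG, and the first CHR form reads TTCAAA. Each window is printed 5′ to 3′ on the strand of its gene. CCNB2 lies at chr15:59104896-59105195 (+), ANLN at chr7:36389612-36389911 (+), TOP2A at chr17:40417847-40418146 (-) and NUSAP1 at chr15:41332631-41332930 (+). CDC25B has 4 windows, and the one that holds CHR letters is given, at chr20:3796060-3796359 (+). MKI67 lies at chr10:128126374-128126673 (-) and CCNB1 at chr5:69166900-69167199 (+).
CCNB2: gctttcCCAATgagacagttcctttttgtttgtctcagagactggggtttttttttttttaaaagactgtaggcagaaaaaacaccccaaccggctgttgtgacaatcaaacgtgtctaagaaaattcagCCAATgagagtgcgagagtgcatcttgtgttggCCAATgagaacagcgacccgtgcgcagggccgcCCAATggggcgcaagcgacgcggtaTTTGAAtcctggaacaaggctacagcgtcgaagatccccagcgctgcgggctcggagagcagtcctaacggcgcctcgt
ANLN: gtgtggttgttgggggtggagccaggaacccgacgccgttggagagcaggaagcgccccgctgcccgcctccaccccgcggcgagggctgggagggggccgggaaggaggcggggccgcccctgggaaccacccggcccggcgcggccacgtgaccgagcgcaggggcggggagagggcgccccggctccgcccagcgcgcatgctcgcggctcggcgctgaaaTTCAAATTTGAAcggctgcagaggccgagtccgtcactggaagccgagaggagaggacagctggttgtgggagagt
TOP2A: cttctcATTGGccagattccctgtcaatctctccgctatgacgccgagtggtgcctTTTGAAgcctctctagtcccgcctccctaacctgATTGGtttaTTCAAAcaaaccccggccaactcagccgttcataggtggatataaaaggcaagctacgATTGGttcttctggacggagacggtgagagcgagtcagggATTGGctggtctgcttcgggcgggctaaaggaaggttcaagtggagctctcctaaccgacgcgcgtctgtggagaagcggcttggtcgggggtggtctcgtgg
NUSAP1: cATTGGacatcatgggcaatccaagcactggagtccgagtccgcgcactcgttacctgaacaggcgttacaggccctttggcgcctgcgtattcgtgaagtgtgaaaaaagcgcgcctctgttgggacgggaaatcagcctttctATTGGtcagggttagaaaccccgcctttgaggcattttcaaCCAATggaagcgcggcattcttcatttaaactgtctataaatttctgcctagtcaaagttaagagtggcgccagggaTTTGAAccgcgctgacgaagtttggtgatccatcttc
CDC25B: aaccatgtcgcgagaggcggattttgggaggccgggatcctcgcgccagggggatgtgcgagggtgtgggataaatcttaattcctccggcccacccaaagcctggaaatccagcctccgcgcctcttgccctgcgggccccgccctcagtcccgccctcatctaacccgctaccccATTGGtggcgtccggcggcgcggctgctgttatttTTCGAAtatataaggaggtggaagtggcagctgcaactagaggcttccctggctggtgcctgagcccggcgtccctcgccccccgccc
MKI67: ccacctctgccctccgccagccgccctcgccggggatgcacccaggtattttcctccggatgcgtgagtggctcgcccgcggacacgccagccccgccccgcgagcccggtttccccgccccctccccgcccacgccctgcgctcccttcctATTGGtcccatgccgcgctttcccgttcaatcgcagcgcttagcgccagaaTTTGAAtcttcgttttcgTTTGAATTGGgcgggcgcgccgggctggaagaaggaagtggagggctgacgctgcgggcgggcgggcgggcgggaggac
CCNB1: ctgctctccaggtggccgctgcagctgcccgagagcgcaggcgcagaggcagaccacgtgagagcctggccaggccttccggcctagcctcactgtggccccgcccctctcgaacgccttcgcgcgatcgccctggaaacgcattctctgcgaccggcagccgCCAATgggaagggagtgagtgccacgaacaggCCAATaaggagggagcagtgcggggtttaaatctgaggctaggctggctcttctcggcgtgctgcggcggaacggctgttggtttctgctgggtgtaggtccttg
CCNB2 and TOP2A each have CCAAT letters at 4 places, and ANLN has none but a pair of CHR matches side by side. CCNB1 has CCAAT letters at 2 places and neither TTTGAA nor TTCGAA in this window, and MKI67 has both CCAAT and CHR letters. CHR letters were thus present both in members that were lower and in members that were higher with WT. The median log2 difference for WT against empty vector was -0.47 over the 25 members with CHR letters, -0.40 over the 8 without and -0.38 over the 7 members with no window used here, which were AURKA, TTK, BUB3, UBE2C, BIRC5, TPX2 and FOXM1.

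**Figure D3:**
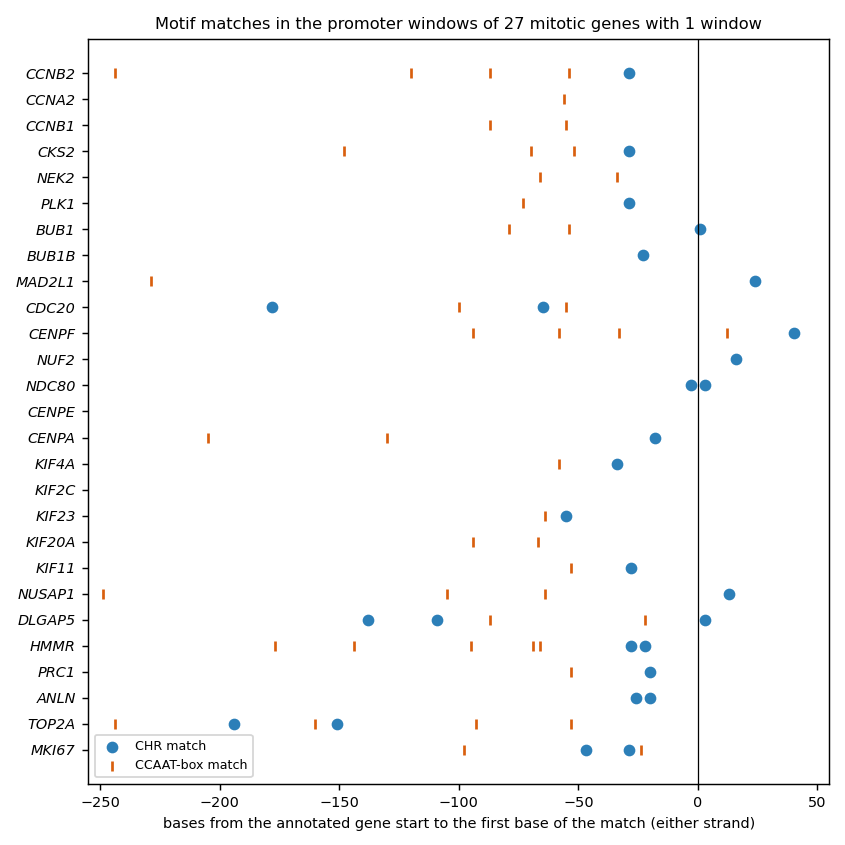
Positions of CHR matches (circles) and CCAAT-box matches (ticks) in the promoter windows of the 27 mitotic genes that have 1 window, in bases from the annotated gene start (0). In CCNB2, PLK1 and CKS2 the CHR match begins 29 bases before the start, and CENPE and KIF2C have no match of either kind.

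S264A was next set against empty vector. Of the 40 genes, 21 were at least 1.2-fold lower with S264A and 1 was at least 1.2-fold higher, against 17.4% and 22.4% of all 12010 genes compared. The median difference was -0.28 on the log2 scale for the mitotic genes and 0.02 for all genes. Below 0 were 33 of the 40, against 47.8% of all genes. On the scale of RPKM + 1 none of the 40 differed 2-fold, while 3.81% of all genes did so, 0.824% lower and 2.99% higher. The WT and S264A comparisons share the empty-vector library, so that a deviation of that library would appear in both.

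The lowest genes of this comparison were PTTG1, KIF20A and CDC25C. PTTG1 was at 15.0 RPKM with WT, 10.9 RPKM with S264A and 20.5 RPKM with empty vector, a ratio of S264A to empty vector of 0.533 (0.469 to 0.604). KIF20A was at 20.1 RPKM with WT, 14.3 RPKM with S264A and 26.2 RPKM with empty vector, a ratio of 0.548 (0.507 to 0.592). CDC25C had a ratio of 0.484 (0.381 to 0.610), while its log2 difference on the RPKM + 1 scale was -0.78. In these 3 genes the S264A library was the lowest. ANLN, NUSAP1 and CCNB2 were lower as well, with ratios of 0.648 (0.623 to 0.674), 0.665 (0.622 to 0.712) and 0.686 (0.651 to 0.723). HMMR was at 12.3 RPKM with WT, 11.1 RPKM with S264A and 16.6 RPKM with empty vector, a ratio of 0.669 (0.611 to 0.733). CDC25B was the 1 member at least 1.2-fold higher, with a ratio of 1.62 (1.56 to 1.69).

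Several members stood within 1.2-fold of the empty-vector library as deposited. CCNA2 was at 26.3 RPKM with S264A and 23.3 RPKM with empty vector, and CKS2 at 62.7 RPKM with S264A and 56.4 RPKM with empty vector. MAD2L1, CENPE, BUB3 and TPX2 had log2 differences from 0.04 to 0.13, and NUF2, DLGAP5 and MKI67 from -0.05 to -0.02. With upper-quartile scaling the differences of CCNA2 (0.17 as deposited), CKS2 (0.15) and TPX2 (0.13) became -0.03, -0.05 and -0.07, and those of MAD2L1, CENPE and BUB3 were below 0 as well. That scaling placed the median of all genes at -0.16 for S264A against empty vector, with 69.6% of all genes below 0. TOP2A had a ratio of 0.889 (0.858 to 0.920), PLK1 of 0.889 (0.838 to 0.942), FOXM1 of 0.890 (0.846 to 0.937) and CCNB1 of 0.837 (0.792 to 0.884). CDK1, at a ratio of 0.775 (0.708 to 0.847), was among the 21 genes at least 1.2-fold lower. By role, 4 of 5 kinesin genes and 3 of 5 mitotic kinase genes were at least 1.2-fold lower, beside 17.4% of all genes. So were 2 of 6 centromere and kinetochore genes and 3 of 7 genes of the cyclin group. These groups are small and some values lay near the cutoff. KIF2C (-0.29) and BIRC5 (-0.27) passed it narrowly, and KIF11 (-0.24) fell just short.

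**Figure D4:**
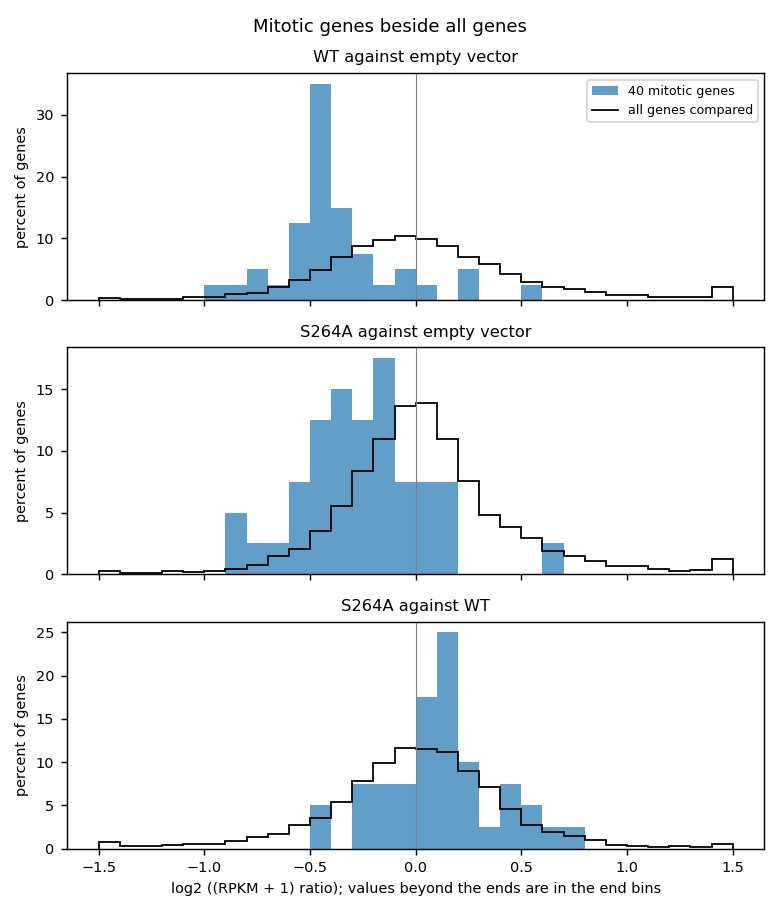
Percent of genes per 0.1 of log2 ratio of RPKM + 1 for the 40 mitotic genes (bars) and for all genes compared (line), in the 3 pairs of lines, with values past the ends put in the end bins. The bars sit left of the line for both THG-1 forms against empty vector, with medians of -0.42 and -0.28, and lie mostly just right of 0 for S264A against WT.

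The third comparison set S264A directly against WT. Most mitotic genes stood somewhat higher with S264A, and 28 of the 40 differed by less than 1.2-fold. At least 1.2-fold higher were 8 genes and at least 1.2-fold lower 4 genes, against 23.3% and 20.8% of all 12069 genes compared. The median was 0.12 on the log2 scale against 0.02 for all genes, and 11 of the 40 were below 0, against 47.7% of all genes. None differed 2-fold, while 3.78% of all genes did so, 2.23% lower and 1.55% higher. When each library was scaled to the same sum of RPKM, the median was 0.23 for the mitotic genes and 0.12 for all genes, and 15 members were at least 1.2-fold higher, against 32.7% of all genes on that scale.

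The 8 genes higher with S264A were CCNA2, TOP2A, DLGAP5, MAD2L1, CENPE, NUF2, CKS2 and CCNB2. CCNA2 was at 26.3 RPKM with S264A and 15.7 RPKM with WT, a ratio of 1.67 (1.51 to 1.85), the highest of the list. TOP2A was at 49.2 RPKM with S264A and 32.0 RPKM with WT, a ratio of 1.54 (1.46 to 1.61). MAD2L1 was at 5.12 RPKM with S264A and 3.28 RPKM with WT, from 413 reads with S264A and 240 with WT, a ratio of 1.56 (1.33 to 1.84). DLGAP5, CENPE and NUF2 had ratios of 1.5 (1.36 to 1.66), 1.44 (1.32 to 1.58) and 1.39 (1.18 to 1.64). These genes include a cyclin, a topoisomerase, a checkpoint protein and kinetochore proteins. As a count, 8 of 40 was below the 23.3% of all genes at least 1.2-fold higher in this comparison.

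Lower with S264A than with WT were KIF20A, PTTG1, CDC25C and MKI67. KIF20A was at 14.3 RPKM with S264A and 20.1 RPKM with WT, a ratio of 0.713 (0.649 to 0.783). PTTG1 was at 10.9 RPKM with S264A and 15.0 RPKM with WT, a ratio of 0.730 (0.626 to 0.851). MKI67 was at 55.6 RPKM with S264A and 68.4 RPKM with WT, a ratio of 0.812 (0.791 to 0.835). For CDC25C, with 89 reads with S264A and 108 with WT, the ratio was 0.748 with an interval of 0.559 to 1.000. With upper-quartile scaling 2 genes stayed at least 1.2-fold lower in place of 4, against 17.5% of all genes on that scale. AURKA, BUB1B, KIF23, KIF11, CENPA and NEK2 differed by at most 0.03 on the log2 scale as deposited.

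Other cell cycle genes were read from 8 lists that hold none of the 40. Their lowest and highest genes were taken on the log2 scale of RPKM + 1, which shrinks the differences of low genes, so that plain ratios can rank them otherwise. The counts for WT against empty vector are to be read against 24.8% of all genes lower and 26.2% higher. With WT against empty vector, 17 of 28 further kinetochore and passenger genes were at least 1.2-fold lower and none higher, with a median of -0.37. CENPH, a protein of the inner kinetochore, was lowest among them, at 7.35 RPKM with WT and 12.8 RPKM with empty vector, and INCENP, the scaffold of the passenger complex, highest at 33.5 RPKM with WT and 31.9 RPKM with empty vector. Of 22 spindle, centrosome and cytokinesis genes 11 were lower and 1 higher (median -0.28), from the kinesin KIF18A, at 5.0 RPKM with WT and 13.1 RPKM with empty vector, to the spindle pole protein NUMA1. KIF18A, with a ratio of 0.381 (0.336 to 0.430), was 1 of 185 genes at least 2-fold lower in this comparison. Condensin and cohesin genes had 10 of 20 lower and 2 higher (median -0.25). The cohesin subunit RAD21 was at 17.5 RPKM with WT and 31.4 RPKM with empty vector, and SMC1A at 14.3 RPKM with WT and 11.5 RPKM with empty vector.

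Lists of genes that act earlier in the cycle had medians near or above 0 as deposited. The anaphase-promoting complex list, given below, was near 0 as well, at -0.07. Medians of the 8 lists were not taken under the other scalings, so that their signs may depend on scaling. Equal upper quartile placed the median of all genes at -0.22 for WT against empty vector, against -0.01 as deposited. The DNA replication list had a median of -0.05. With WT 10 of its 27 genes (37.0%) were at least 1.2-fold lower and 2 higher, against 24.8% and 26.2% of all genes. The list ran from POLA1, the catalytic subunit of DNA polymerase alpha, at 7.71 RPKM with WT and 12.6 RPKM with empty vector, to RRM2, a subunit of ribonucleotide reductase, at 27.6 RPKM with WT and 19.8 RPKM with empty vector. Of 15 genes of G1 cyclins, their kinases, E2F and RB, 3 were lower and 6 higher (median 0.12). CCND2, which encodes cyclin D2, was at 52.0 RPKM with WT, 34.8 RPKM with S264A and 14.9 RPKM with empty vector, a ratio of WT to empty vector of 3.50 (3.35 to 3.66). RB1, the retinoblastoma gene, was at 5.37 RPKM with WT and 8.40 RPKM with empty vector.

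Among CDK inhibitors and checkpoint kinases 5 of 13 genes were at least 1.2-fold lower and 5 higher with WT (median 0.15), against 24.8% and 26.2% of all genes. CDKN1A, which encodes the CDK inhibitor p21, was at 33.9 RPKM with WT, 16.5 RPKM with S264A and 8.78 RPKM with empty vector. Its ratio to empty vector was 3.86 (3.54 to 4.22) for WT and 1.88 (1.70 to 2.08) for S264A. GADD45A, a stress-induced growth arrest gene, was at 21.1 RPKM with WT, 8.34 RPKM with S264A and 3.92 RPKM with empty vector. The CDK-binding phosphatase gene CDKN3, lowest on the log2 scale of RPKM + 1 but not by the plain ratio, was at 6.74 RPKM with WT and 10.6 RPKM with empty vector. For both CDKN1A and GADD45A the WT library was highest and the empty-vector library lowest, the reverse of CCNB2, CDK1 and ANLN. Other CDK inhibitor genes of this list, CDKN2A and CDKN2C, had the same order as CCNB2, with log2 differences of -0.37 and -0.54 for WT against empty vector. CCND2, which encodes cyclin D2, had the same order as CDKN1A. Whether these levels bear on the mitotic genes was not tested.

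The list of MuvB, B-MYB and DREAM genes had 5 of 12 lower and none higher with WT (median -0.25), from the pocket protein gene RBL2, lowest on the log2 scale of RPKM + 1 but not by the plain ratio, at 3.35 RPKM with WT and 6.16 RPKM with empty vector to the repressor E2F4 at 19.3 RPKM with WT and 16.9 RPKM with empty vector. The anaphase-promoting complex list had 6 of 15 lower and none higher (median -0.07), from the inhibitor gene FBXO5 at 3.51 RPKM with WT and 6.43 RPKM with empty vector to the subunit gene ANAPC7 at 6.55 RPKM with WT and 5.44 RPKM with empty vector. Over all 8 lists, 67 of 152 genes compared were at least 1.2-fold lower and 16 at least 1.2-fold higher with WT, against 24.8% and 26.2% of all genes, with a median of -0.21. For S264A against empty vector the counts were 36 lower and 25 higher of 152, against 17.4% and 22.4% of all genes, with a median of -0.06. For S264A against WT they were 15 lower and 51 higher of 150, against 20.8% and 23.3% of all genes, with a median of 0.16.

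**Figure D5:**
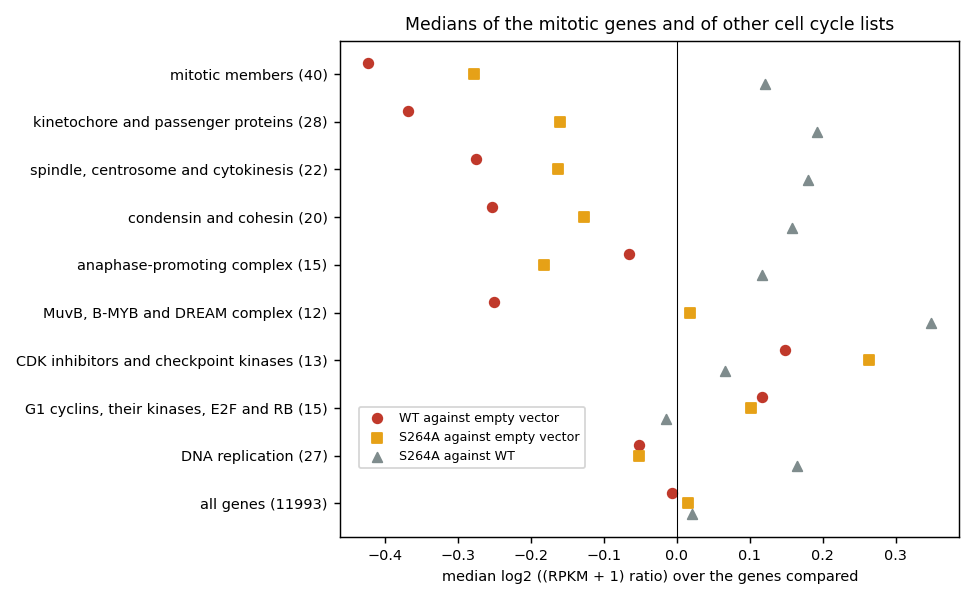
Median log2 ratio of RPKM + 1 of the 40 mitotic genes, of 8 other cell cycle lists and of all genes in the 3 pairs of lines, with the number of genes compared for WT against empty vector in brackets. As deposited, the mitotic genes have the lowest median of the lists shown for both THG-1 forms against empty vector. The lists of CDK inhibitors and of G1 genes lie right of 0 there. The other scalings were not run for the 8 other lists.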

How the data were processed

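RNA of 3 lines was sequenced, with 1 library each. Per the file headers, the authors deposited RPKM for each library in one column and normalised RPKM in a second. The second column was checked to be RPKM quantile-normalised across the 3 libraries. The build listed is hg19, per the submitters' processing notes. No aligner, counter or strand setting is stated in the sources used here, so that reads of a gene and of an overlapping antisense gene cannot be told apart. Where a symbol had several rows (234 symbols, none a member), the row with the highest mean was used.

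Differences were log2((RPKM + 1)/(RPKM + 1)) over genes that reached 1 RPKM in either library of a pair, counted past 1.2-fold and 2-fold. This scale understates the change of low genes. Whole reads were recovered from the RPKM steps: depths came from 1-exon genes with lengths from GENCODE release 29, and gene reads from lengths at which all libraries came out whole within 0.001 reads. This held for 40 of 40 members. For 22 the GENCODE length was met, and for 18 the nearest length that gave whole reads was used. Interval widths depend on that choice. Reads per member ranged from 89 to 23137. No count test was run. The procedure was tested on simulated data made with the GENCODE lengths. The choice of a nearest length was thus not tested. Members, lists and the 1.2-fold rule were chosen with earlier results of these data known. Members with the 8 largest absolute differences in each comparison, 6 members by role, CDKN1A and the extremes of each other list were named by rule. The other members are given by value or range. Alternatives were pseudocounts of 0.1 and 5, no filter, a filter at 5 RPKM, equal upper quartile, equal sum and the quantile-normalised columns. Python 3.11.15, numpy 2.4.6, pandas 2.3.3, scipy 1.17.1 and matplotlib 3.10.9 were used.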

Additional observations from a re-analysis of the deposited data

How the results depend on the processing

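The medians of the mitotic genes kept their sign in all 3 comparisons under every alternative run. For WT against empty vector the median of -0.42 was -0.32 with a pseudocount of 5, -0.67 with equal upper quartile and -0.57 with equal sum. Members at least 1.2-fold higher there numbered 3 as deposited and 1 with a pseudocount of 5, equal upper quartile, equal sum or the quantile-normalised columns, and members 2-fold different numbered 0 as deposited, 3 with equal upper quartile, 2 with equal sum and 2 in the quantile-normalised columns. For S264A against empty vector the median of -0.28 was -0.48 with equal upper quartile, and members 2-fold different numbered 0 as deposited, 1 with a pseudocount of 0.1 and 2 with equal upper quartile. For S264A against WT the median of 0.12 was 0.23 with equal sum, members at least 1.2-fold higher numbered 8 as deposited, 15 with equal sum and 13 in the quantile-normalised columns, and members at least 1.2-fold lower numbered 4 as deposited and 2 with equal upper quartile or equal sum. Equal upper quartile and equal sum placed the median of all genes at -0.22 and -0.14 for WT against empty vector, at -0.16 and -0.02 for S264A against empty vector, and at 0.07 and 0.12 for S264A against WT. All genes at least 1.2-fold lower were 24.8% as deposited, 45.7% with equal upper quartile and 36.8% with equal sum for WT against empty vector, and all genes at least 1.2-fold higher were 26.2%, 14.4% and 17.9% in the same order. For S264A against empty vector the lower share was 17.4%, 35.3% and 20.8% and the higher share 22.4%, 14.0% and 20.05% in that order. For S264A against WT the lower share was 20.8%, 17.5% and 14.8% and the higher share 23.3%, 27.1% and 32.7%. With a pseudocount of 5 the higher share was 15.7% for WT against empty vector. In the quantile-normalised columns it was 22.7% for WT against empty vector and 22.4% for S264A against WT. The share of all genes past 2-fold was not taken under the alternatives, so that the 2-fold counts of members there have no share beside them. Of 120 single differences of members, 11 changed sign under a scaling, each smaller than 1.2-fold as deposited. No paired analysis was possible because each line has 1 library, and for the same reason none could be left out. Depth limits CDC25C most among the members.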
